A study of Mus musculus with 4 samples.

Results

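Genes for the contractile apparatus of striated muscle were followed in Osr1+ cells sorted from mouse limbs. The list held 36 genes listed by function: sarcomeric actins, myosin heavy and light chains, troponins, giant filament proteins, thick filament, M-band and Z-disc proteins, calcium handling proteins, creatine kinase and myoglobin. All 36 were among the 23284 gene symbols of the count files, and 34 of them had enough counts to be tested.

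RNA came from limbs of C57BL/6J embryos at E13.5, when limb muscle is forming, from live cells sorted by FACS for GFP. The GFP is made from the Osr1 GCE allele, an eGFP-IRES-CreERt2 cassette knocked into Osr1, a transcription factor gene of limb connective tissue. There were 2 Osr1 GCE/+ (heterozygous) and 2 Osr1 GCE/GCE (homozygous) libraries, each from 1 embryo. Each library was sequenced as 50-bp read pairs. Every sample carried the GCE allele, so there was no wild-type group, and GFP was expressed from 1 allele in GCE/+ and from 2 in GCE/GCE cells.

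In a sarcomere, myosin thick filaments pull on actin thin filaments that are anchored at the Z-disc, and troponin makes this depend on calcium. Limb muscle is built in steps from embryonic isoforms to perinatal and adult ones, so that embryonic and perinatal myosin heavy chains and cardiac actin come before the adult fast proteins. Muscle fibres come from Pax3+ and Pax7+ cells of the somites, a lineage apart from the limb mesenchyme in which Osr1 is active. In a bulk sample of sorted cells, fewer cells of a type and less RNA per cell cannot be told apart.

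The genes Myh3, Myh2, Myh1 and Myh8 lie in this order on chromosome 11 in the cluster of skeletal myosin heavy chains. The 250 bases upstream of each start are shown because these neighbours make closely similar proteins and are used at very different levels in the results that follow. The sequences are RefSeq's, in build GRCm38.p6. Capitals mark matches, on either strand, to an E-box (CANNTG, the core bound by MyoD family factors), a TATA box (TATAAA) or an MCAT element (CATTCC, bound by TEAD factors). No matches overlapped in these windows.

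Myh3, chr11:67078050-67078299, + strand: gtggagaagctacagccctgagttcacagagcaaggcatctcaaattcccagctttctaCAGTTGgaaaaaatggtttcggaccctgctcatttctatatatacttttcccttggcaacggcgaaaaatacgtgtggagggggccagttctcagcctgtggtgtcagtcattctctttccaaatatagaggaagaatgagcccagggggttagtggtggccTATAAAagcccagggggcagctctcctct

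Myh2, chr11:67170777-67171026, + strand: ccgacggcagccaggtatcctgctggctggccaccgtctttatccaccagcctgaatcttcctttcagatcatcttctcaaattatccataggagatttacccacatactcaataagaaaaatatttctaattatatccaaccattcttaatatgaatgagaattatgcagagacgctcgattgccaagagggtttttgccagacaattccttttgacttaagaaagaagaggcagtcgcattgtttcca

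Myh1, chr11:67199852-67200101, + strand: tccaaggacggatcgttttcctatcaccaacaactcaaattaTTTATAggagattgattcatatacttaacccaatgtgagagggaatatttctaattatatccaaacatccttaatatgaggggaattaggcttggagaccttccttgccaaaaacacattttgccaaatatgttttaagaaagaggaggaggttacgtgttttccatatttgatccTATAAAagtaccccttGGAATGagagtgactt

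Myh8, chr11:67276874-67277123, + strand: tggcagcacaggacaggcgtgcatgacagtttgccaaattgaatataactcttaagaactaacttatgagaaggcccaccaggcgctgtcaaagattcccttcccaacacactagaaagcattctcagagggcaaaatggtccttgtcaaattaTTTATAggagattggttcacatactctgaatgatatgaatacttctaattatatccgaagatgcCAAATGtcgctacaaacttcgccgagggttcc

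The Myh3 window held an E-box and a TATA box close to its start. The Myh8 window held an E-box near the start and a TATA box match farther upstream, on the opposite strand. The Myh1 window held 2 TATA box matches and an MCAT element, and the Myh2 window held none of these letters. Of the 36 genes, 30 had 37 such windows in the RefSeq table. An E-box stood in 81.1% of these windows and in 66.2% of all 32851 windows of the table, a TATA box in 21.6% against 12.4%, and an MCAT element in 24.3% against 12.6%. A CArG box, the element bound by serum response factor, stood in 16.2% against 1.5%, and the MEF2 site in 2.7% against 0.5%. These are counts of letters in a window, not of bound sites.

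The files held 52121596 to 61402140 counts per sample, so that 3 counts, the floor used here, stood for 0.049 to 0.0574 CPM. CPM, the unit used here, is the count of a gene relative to the TMM-scaled library size. Osr1 itself was at 81.9 and 79.1 CPM in GCE/+ and at 11.9 and 13.9 CPM in GCE/GCE cells, in the direction of the labels (log2 fold change -2.64, adjusted p = 5.94e-05). The GCE/GCE replicate 1 library stood apart in Xist, at 1142 CPM against 0.572 to 2.63 CPM in the other 3. The 7 limb connective tissue markers summed to 11670 and 10890 CPM in GCE/+ and to 9567 and 8731 CPM in GCE/GCE, far above any muscle list. Most of each sum was Col3a1, at 9550 and 8788 CPM against 7718 and 6846 CPM. Cartilage markers summed to 519.6 and 826.2 CPM in GCE/+ and to 1156 and 1258 CPM in GCE/GCE, and macrophage markers to 229.3 and 244.6 CPM against 152.1 and 106.8 CPM. The part of these cells in the results was not tested.

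Sarcomere transcripts were a small part of the RNA of these sorted samples. By immunolabelling, the paper found Myf5+ or Myogenin+ cells in the GFP-negative fraction alone. Whether the sarcomere RNA came from Osr1+ cells or from muscle cells carried along in the sort was not tested. The 36 genes summed to 282.6 and 324.2 CPM in the GCE/+ libraries and to 374.7 and 345.0 CPM in the GCE/GCE libraries, which is 0.0284% to 0.0372% of all counts. Both GCE/GCE sums lay above both GCE/+ sums. The mean was 18.6% higher in GCE/GCE, a log2 ratio of 0.25, with an exact permutation p of 0.33 (two-sided, n = 2 per group), the smallest p that 2 against 2 samples can give. The log2 ratio was 0.15 without GCE/+ replicate 1 and 0.35 without GCE/+ replicate 2. The 12 markers of skeletal myogenic cells summed to 79.9 and 86.1 CPM against 94.6 and 80.3 CPM, where the groups overlapped. Divided by these marker sums, the 36 genes came to 3.54 and 3.76 in GCE/+ and to 3.96 and 4.29 in GCE/GCE cells (exact permutation p = 0.33, n = 2 per group).

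**Figure D1:**
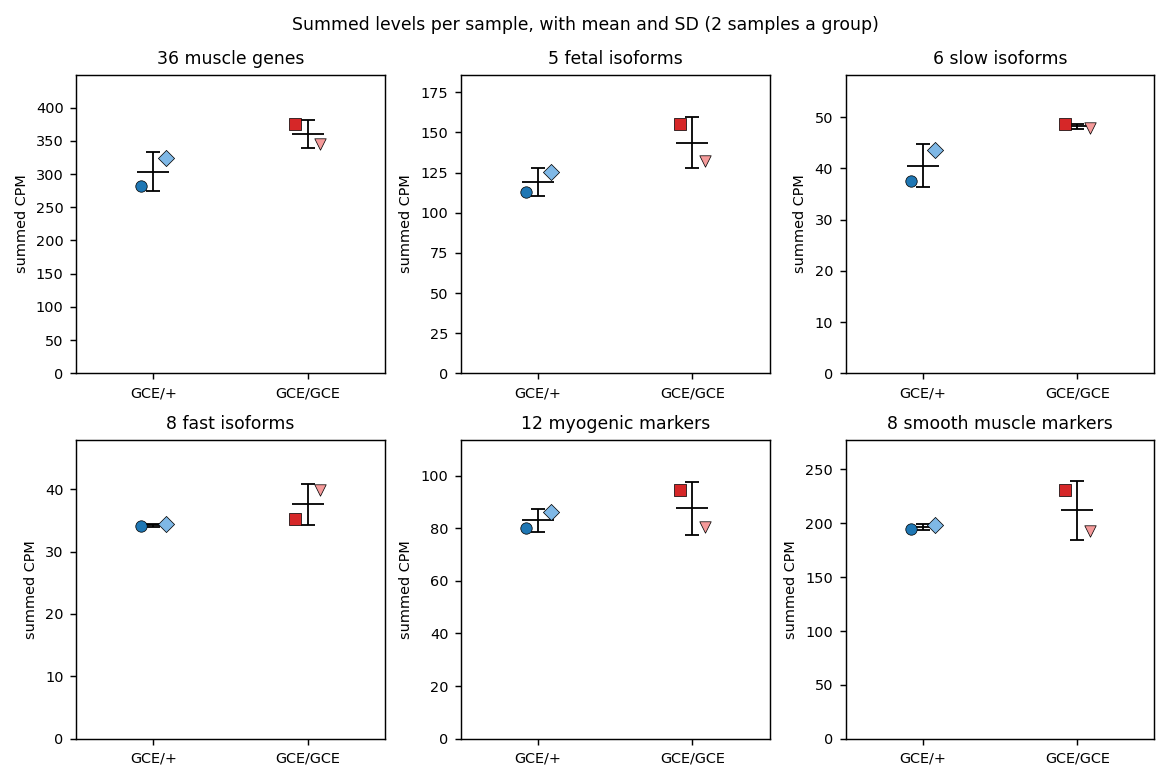
Summed CPM (vertical axes, from 0) in each of the 4 samples for the 36 muscle genes, 3 isoform classes, and markers of myogenic and smooth muscle cells; circles and diamonds are GCE/+ replicates 1 and 2, squares and triangles GCE/GCE replicates 1 and 2, bars the mean and SD. The groups are apart for the 36 genes (282.6 and 324.2 against 374.7 and 345.0 CPM) and overlap for the myogenic and smooth muscle markers.

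Across the list the fitted difference leaned towards GCE/GCE, but a single gene passed the test. Of the 34 genes tested, 1 was called higher in GCE/GCE (Myh8) and 0 lower by edgeR's quasi-likelihood test at an adjusted p under 0.1. Among all 15645 genes tested 0.895% were called higher and 0.927% lower. DESeq2 called 3 higher (Myh8, Casq2 and Ttn) and 1 lower (Actn3), beside 1.77% and 1.69% of the genes it tested. An unadjusted edgeR p under 0.05 was reached by 13 on the higher side and 1 on the lower, beside 5.62% and 4.86% of all genes. Both GCE/GCE values lay above both GCE/+ values for 21 genes and below for 1, Actn3, while 12 overlapped, beside 19.2% and 19.1% of all genes. The log2 fold change was above 0 in 29 genes and below 0 in 5, with a median of 0.34 (range -0.63 to 0.98) where the median of all genes was 0.00334. Genes of the list come from the same cells and share 4 libraries, so these counts are not independent of each other.

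These counts depended on which embryos were in the fit. Within GCE/+, replicate 2 was above replicate 1 in 24 of the 34 genes, by a median of 0.13 on the log2 scale. Within GCE/GCE, replicate 2 was above replicate 1 in 13 of 34, with a median of -0.08. The share of all genes with replicate 2 above replicate 1 was not counted. Without GCE/+ replicate 1, 0 of the 34 genes were called and the median log2 fold change was 0.22, where 199 of all genes were called instead of 285. Without GCE/+ replicate 2, 6 were called (Myh8, Myh3, Ttn, Ryr1, Myom2 and Actn3) and the median was 0.43, while the calls over all genes went up to 961. Without GCE/GCE replicate 1, the library with high Xist, 4 of the 36 were called (Myh8, Casq2, Ttn and Ckm, which had 0 counts in the GCE/GCE library that was kept), and the median was 0.30, with 748 calls over all genes.

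**Figure D2:**
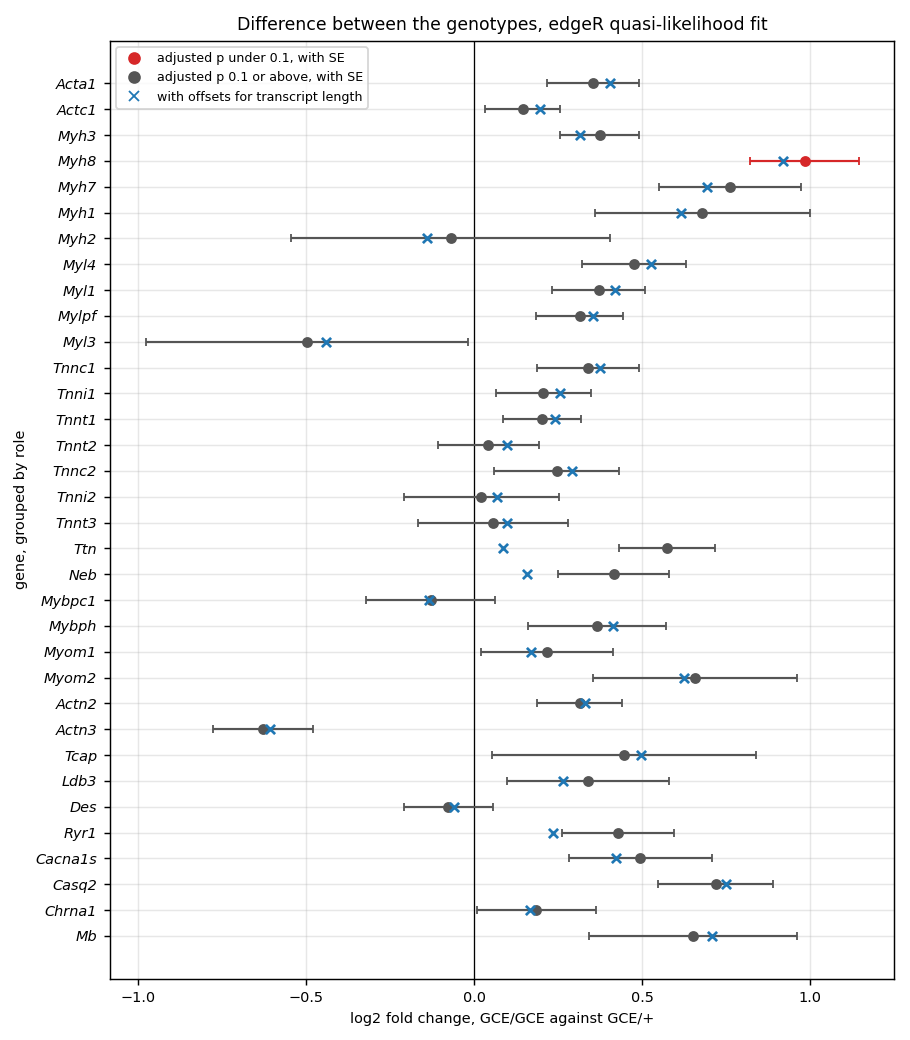
Log2 fold change of GCE/GCE against GCE/+ cells (horizontal axis) for the 34 genes tested, in order of role; points and bars are the edgeR estimate and its SE, and crosses the estimate with offsets for transcript length. Myh8, at 0.98, is the only gene with an adjusted p under 0.1, and most points lie to the right of 0 while Actn3 lies at -0.63.

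Myosin heavy chains, the motor subunits, were led by the embryonic form. Myh3 (embryonic, chr11:67078300-67102291 in GRCm38) was at 29.8 and 37.1 CPM in GCE/+ and at 44.8 and 41.8 CPM in GCE/GCE cells. The groups did not overlap, and the log2 fold change of 0.37 (SE 0.12) missed the threshold at an adjusted p of 0.248. Myh8 (perinatal, chr11:67277124-67308634) was at 4.86 and 5.93 CPM in GCE/+ and at 11.4 and 9.92 CPM in GCE/GCE cells. Both homozygous values stood well above both heterozygous ones, with means of 5.395 ± 0.755 and 10.7 ± 1.05 CPM (SD, n = 2 each). Myh8 rose by 0.98 (log2 scale, SE 0.16, 95% interval 0.61 to 1.35), with an adjusted p of 0.0377 by the quasi-likelihood fit of edgeR. By DESeq2 the adjusted p was 1.01e-04. Without GCE/+ replicate 1 the rise was 0.84 and its adjusted p 0.103, just above the threshold. Without GCE/GCE replicate 1 it was 0.87, with an adjusted p of 0.00534.

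Myh7, the slow and cardiac beta heavy chain, was at 1.43 and 1.80 CPM against 2.77 and 2.68 CPM. Its groups were apart, by 0.76 (log2 scale, SE 0.21, adjusted p = 0.180). Myh1, the adult fast 2X chain, was at 0.903 and 0.822 CPM against 0.999 and 1.76 CPM, so that a single GCE/GCE library carried most of its difference (log2 fold change 0.68, SE 0.32). Myh2, the adult fast 2A chain, gave 23 and 10 counts in GCE/+ and 12 and 21 in GCE/GCE libraries and overlapped between the groups. Myh4, the adult fast 2B chain, is not on the list but lies between Myh1 and Myh8. It was at 1.23 and 1.11 CPM against 0.4996 and 0.5881 CPM, lower in both GCE/GCE libraries (log2 fold change -1.10, SE 0.27, adjusted p = 0.126). Heavy chain genes share near-identical stretches, so reads may have been lost or moved between them, and the levels of the scarce chains are uncertain.

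The mixture of heavy chains, taken from these same values, was apart between the groups. Per kilobase of exon, Myh3 made up 80.1% and 81.3% of the 5 listed chains in GCE/+ and 74.9% and 74.4% in GCE/GCE cells. The Myh8 share was 12.8% and 12.7% against 18.7% and 17.3%. The Myh7 share was 3.67% and 3.76% against 4.42% and 4.55%. For these 3 genes the difference between groups, at -6.04, 5.21 and 0.77 percentage points, exceeded the spread within them, and each exact permutation p was 0.33, the smallest possible (n = 2 per group). Shares were compared in 7 families of isoforms, and with this smallest p none can pass an adjustment over them. In other families the shares of Myl3, Acta1, Actc1, Tnni1, Tnni2 and Tnnt1 were apart between the groups as well. Acta1 and Actc1 make up a whole family, as do Tnni1 and Tnni2, so each pair is a single result. The shares of Myl1, Myl4, Mylpf, Myl2, Tnnc1, Tnnc2, Tnnt2 and Tnnt3 overlapped. By CPM, 19.2% of all genes were apart on the higher side and 19.1% on the lower. The shares of Myh1 and Myh2 overlapped, at 0.342% to 3.19%.

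**Figure D3:**
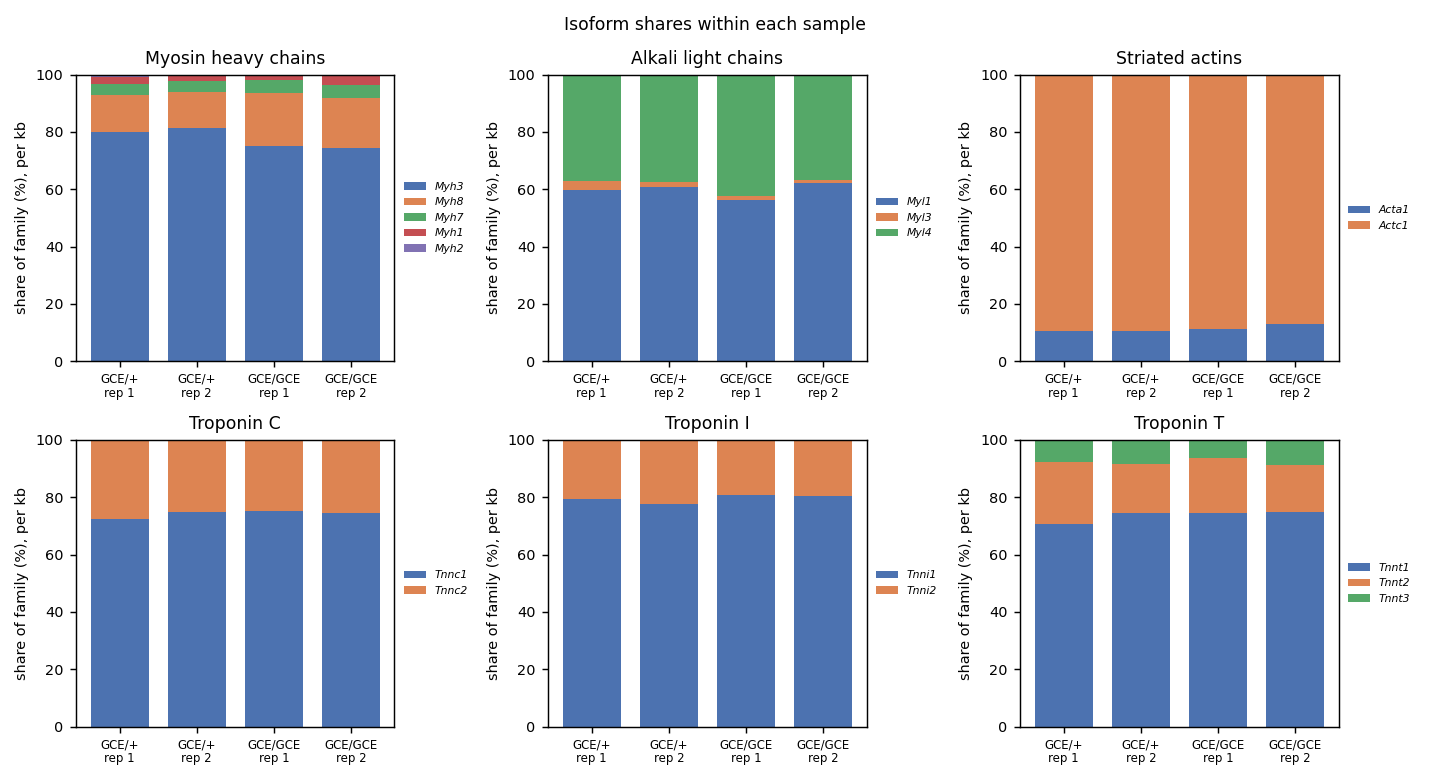
Share of each isoform in its family (%, vertical axes, from CPM per kilobase of exon) in each of the 4 samples, as stacked bars. In the myosin heavy chains the Myh8 share is 12.7% to 12.8% in GCE/+ and 17.3% to 18.7% in GCE/GCE, while in the troponin families the slow members Tnnc1, Tnni1 and Tnnt1 stay the largest in each sample. The troponin C shares are uncertain, as Tnnc2 shares 592 exonic bases with Ube2c.

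The light chains, which bind the neck of the heavy chain, were mostly embryonic or fast forms. Myl4, the embryonic and atrial alkali light chain, was at 4.89 and 4.90 CPM in GCE/+ and at 7.18 and 6.44 CPM in GCE/GCE cells, higher by 0.48 (log2 scale, SE 0.15, adjusted p = 0.262). Myl1, the fast alkali light chain, was at 7.78 CPM in both GCE/+ libraries and at 9.39 and 10.7 CPM in GCE/GCE. Mylpf, the fast regulatory light chain, was at 10.8 and 11.2 CPM against 12.8 and 14.7 CPM. All 3 were separate between the groups and missed the threshold. Myl3, the slow and ventricular alkali chain, gave only 9 to 18 counts and overlapped. Myl2, the slow and ventricular regulatory chain, gave 1 or 2 counts per library and was not tested, so that Mylpf held 99.6% to 99.8% of the regulatory light chains per kilobase.

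Of the actins of the thin filament, the cardiac form was far ahead. Actc1 (cardiac alpha-actin, the main actin of embryonic skeletal muscle, chr2:114047282-114053548) was at 65.7 and 70.3 CPM in GCE/+ and at 83.3 and 67.1 CPM in GCE/GCE cells. The groups overlapped and the log2 fold change was 0.15 (SE 0.11, adjusted p = 0.795). Acta1, the skeletal alpha-actin that later takes its place, was at 7.56 and 8.30 CPM against 10.4 and 9.82 CPM. Its groups were apart, by 0.35 (log2 scale, SE 0.14, adjusted p = 0.380). Acta1 made up 10.5% and 10.7% of these actins per kilobase in GCE/+ and 11.3% and 13.0% in GCE/GCE. Actin coding sequences are very alike, and reads between them may have been misplaced.

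Troponin, the calcium switch of the thin filament, was counted mainly in its slow form. Tnnt1 (slow troponin T, which binds tropomyosin) was at 22.3 and 27.0 CPM in GCE/+ and at 28.2 and 28.5 CPM in GCE/GCE cells. Tnnc1 (the slow and cardiac calcium-binding subunit) was at 6.27 and 7.54 CPM against 8.80 and 8.64 CPM, and Tnni1 (the slow inhibitory subunit) at 7.26 and 7.02 CPM against 8.65 and 7.83 CPM. These 3 were above GCE/+ in each GCE/GCE library, by log2 fold changes of 0.20 to 0.34 that did not pass (adjusted p 0.487 to 0.752). Tnnt2, the cardiac troponin T, overlapped at 7.14 to 8.27 CPM. The fast subunits Tnnc2, Tnni2 and Tnnt3 had log2 fold changes of 0.25, 0.02 and 0.06, and only Tnnc2 was separate between the groups. Tnnc2 shares 592 exonic bases on the opposite strand with Ube2c, which was at 40.8 to 45.4 CPM. Its exonic length is 700 bases, from transcripts with a RefSeq record, whereas the overlap was taken over all its annotated transcripts. The library kit does not mark strand, so reads in the shared stretch cannot be told apart and may have been left uncounted. The Tnnc2 level is therefore uncertain, and so are the troponin C shares per kilobase.

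By isoform class, the 5 fetal isoforms (Myh3, Myh8, Myl4, Actc1 and Tnnt2) had their median at 0.37 on the log2 scale, with 1 called. The 5 slow isoforms tested (of 6) had a median of 0.21 and the 8 fast isoforms, with Actn3 among them, a median of 0.15, each with 0 called by edgeR. An unadjusted p under 0.05 was reached in these classes by 3 fetal, 1 slow and 3 fast isoforms, of which 1, Actn3, was on the lower side. Among all genes 5.62% reached it on the higher side and 4.86% on the lower. DESeq2 called 1 fetal isoform higher and 1 fast isoform lower, beside 1.77% and 1.69% of the genes it tested. Myh4, a fast chain at a log2 fold change of -1.10, is not in the fast class. Summed, the fetal isoforms came to 113.1 and 125.4 CPM against 155.0 and 132.4 CPM. The slow isoforms came to 37.5 and 43.5 CPM against 48.6 and 47.8 CPM, and the fast isoforms to 34.1 and 34.4 CPM against 35.2 and 39.9 CPM. The difference between the classes was not tested.

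The giant proteins that span the sarcomere were the longest transcripts of the list. Ttn (titin, the elastic spring from Z-disc to M-band, chr2:76703980-76982547) was at 8.56 and 10.7 CPM in GCE/+ and at 14.35 and 14.34 CPM in GCE/GCE cells. The fit gave it a log2 fold change of 0.57 (SE 0.14), with an adjusted p of 0.130 in edgeR and 0.0382 in DESeq2. Neb (nebulin, which runs along the thin filament) was at 5.60 and 7.21 CPM against 8.30 and 8.76 CPM, which is 0.42 on the log2 scale (SE 0.16, adjusted p = 0.407). Both were separate between the groups.

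Fold changes of all genes moved with transcript length in these libraries, and this bears on the giant genes. Over the 15472 genes tested that had a length, the Spearman correlation of the log2 fold change with exonic length was 0.25, given as a description across genes that share the 4 libraries. The median log2 fold change was -0.04 in the shortest of the equal-sized length classes and 0.12 in the longest. With offsets for each sample's trend on length, the Ttn value went from 0.57 to 0.09 (adjusted p = 0.882). Neb went from 0.42 to 0.16 and Ryr1 from 0.43 to 0.24. The DESeq2 call on Ttn thus rests on a scale without this correction. Ttn has 104254 exonic bases, where the longest length class has a median of 8268. Its offset was set at the far end of the trend, with Ttn itself in the fit, so its shift is not an independent test. The Myh8 value went from 0.98 to 0.92 with an adjusted p of 0.0452 and was still called. The median of the 34 genes went from 0.34 to 0.28. The 22 genes of up to 5000 bases had a median of 0.23, where all genes of that length had -0.02.

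**Figure D4:**
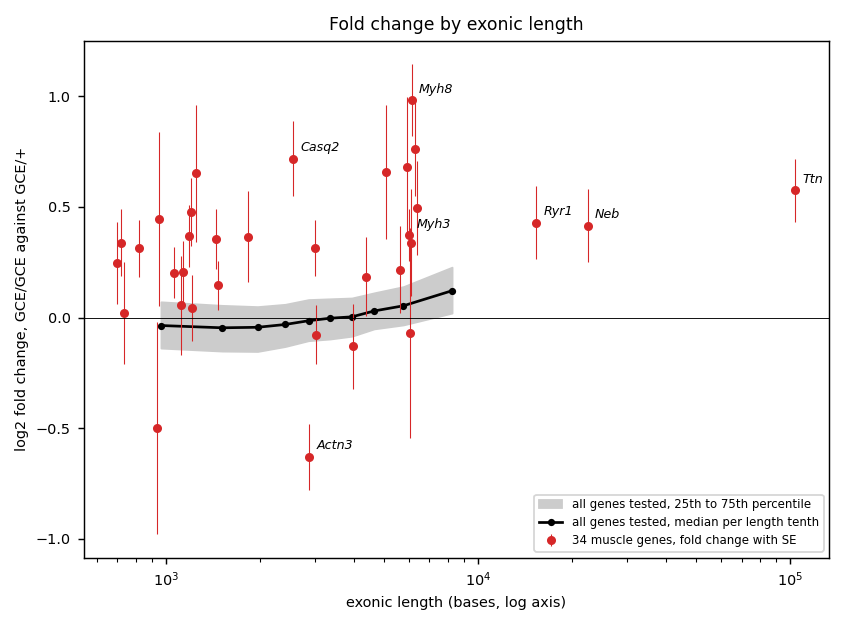
Log2 fold change of GCE/GCE against GCE/+ (vertical axis) by exonic length in bases (horizontal log axis); red points and bars are the 34 muscle genes with their SE, the black line the median of all genes tested in each of the equal-sized length classes and the grey band their middle range. The line goes from -0.04 in the shortest class to 0.12 in the longest, and Ttn, Neb and Ryr1 lie beyond its right end.

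Thick filament and M-band genes varied between embryos of the same genotype. Mybpc1 (slow myosin-binding protein C) was at 16.0 and 23.2 CPM in GCE/+ and at 20.3 and 15.5 CPM in GCE/GCE cells and overlapped. Myom2, an M-band crosslinker, was at 1.05 and 1.95 CPM against 2.64 and 2.06 CPM. Its log2 fold change was 0.66 (SE 0.30), and most of its spread came from GCE/+ replicate 1. Myom1, the other M-band crosslinker, overlapped at 4.66 to 6.94 CPM. Mybph, myosin-binding protein H, was separate at 2.97 and 4.19 CPM against 4.77 and 4.43 CPM, and shares 1162 exonic bases with Adora1 on the opposite strand, itself at 2.79 to 3.55 CPM.

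At the Z-disc the 2 alpha-actinins, which crosslink actin, lay on opposite sides of 0. Actn2, the form in all fibres, was at 11.9 and 14.0 CPM in GCE/+ and at 15.9 and 16.2 CPM in GCE/GCE cells (log2 fold change 0.31, SE 0.13, adjusted p = 0.416). Actn3, the fast fibre form (chr19:4861216-4877909), was at 7.98 and 7.40 CPM against 5.12 and 4.84 CPM. It is the only gene of the list with both GCE/GCE values below both GCE/+ values. Its log2 fold change was -0.63 (SE 0.15, 95% interval -0.97 to -0.29), with an adjusted p of 0.117 in edgeR and 0.0619 in DESeq2, so the call depends on the tool. Des (desmin, the intermediate filament that ties Z-discs together) overlapped at 13.9 to 17.2 CPM, with a log2 fold change of -0.08. Ldb3, a Z-disc scaffold, and Tcap, the titin cap, overlapped too.

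Genes for excitation and calcium handling had their median at 0.46 on the log2 scale, and 0 of 4 were called by edgeR. Casq2 (calsequestrin 2, the calcium store protein of slow and cardiac muscle, chr3:102086415-102146514) was at 3.02 and 3.16 CPM in GCE/+ and at 4.81 and 5.36 CPM in GCE/GCE cells. The groups were well apart, at a log2 fold change of 0.72 (SE 0.17) with an adjusted p of 0.117 in edgeR and 0.0907 in DESeq2. Ryr1, the calcium release channel, was at 10.6 and 15.0 CPM against 16.7 and 17.6 CPM. Cacna1s, the voltage sensor of the T-tubule, was at 1.61 and 1.82 CPM against 2.62 and 2.21 CPM. Both were separate between the groups and missed the threshold (adjusted p = 0.385 and 0.465). Chrna1, the acetylcholine receptor alpha subunit, overlapped at 5.58 to 7.43 CPM.

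The 2 listed genes of energy and oxygen supply, Ckm and Mb, were scarce in these samples. Ckm, muscle creatine kinase, gave 4 and 14 counts in GCE/+ and 8 and 0 counts in GCE/GCE libraries and was not tested. The count of 0 allows up to 0.049 CPM in that library. Mb, myoglobin, was at 0.443 and 0.440 CPM against 0.620 and 0.768 CPM, separate between the groups by 0.65 (log2 scale, SE 0.31, adjusted p = 0.533).

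**Figure D5:**
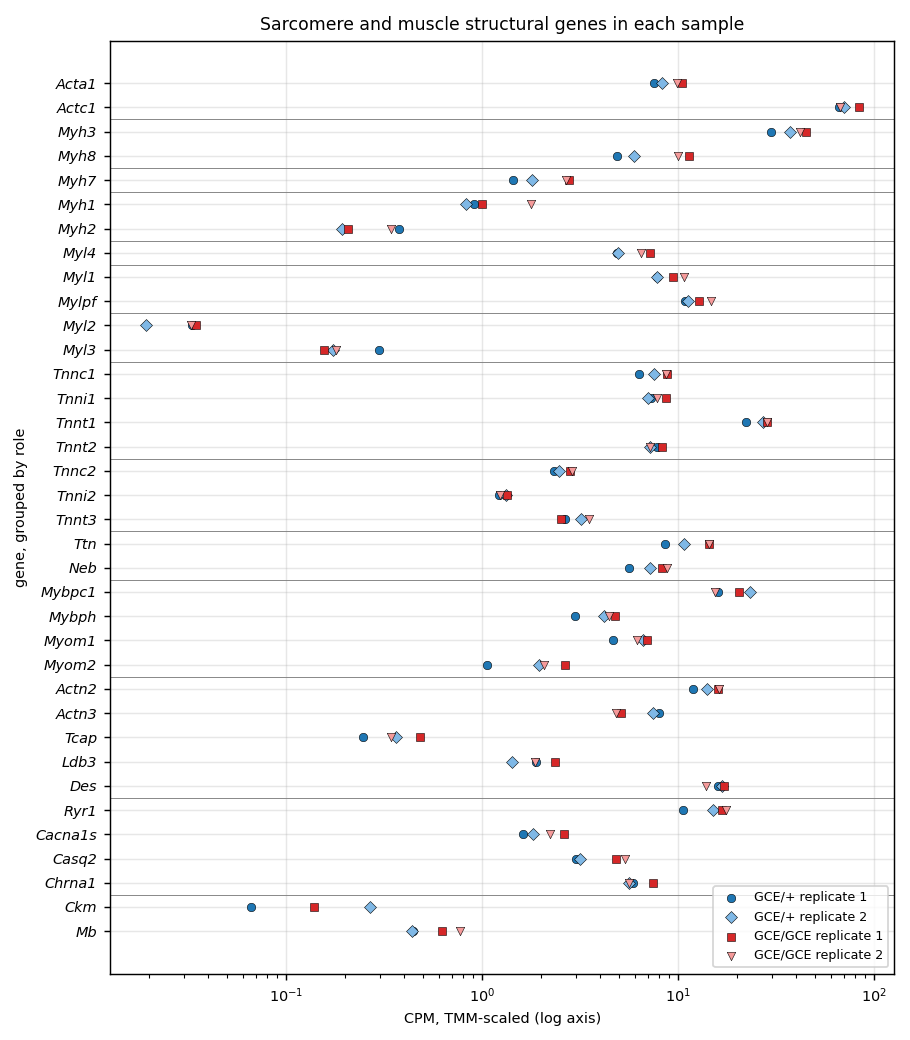
Level of each of the 36 genes (horizontal log axis, TMM-scaled CPM) in the 4 samples, with lines between roles; the 0 of Ckm in GCE/GCE replicate 2 cannot be drawn on the log axis. Levels run from Myl2 near 0.03 CPM to Actc1 at 65.7 to 83.3 CPM, and for Myh8, Casq2 and Actn3 the genotypes are visibly apart.

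Compared per kilobase of exon, the order of levels in GCE/+ cells began with Actc1 at 44.6 and 47.7 CPM per kilobase, followed by Tnnt1 at 21.01 and 25.5 and Mylpf at 13.2 and 13.7. Tnnc1 came next at 8.70 and 10.4 CPM per kilobase. Below it Myl1, Tnni1 and Tnnt2 lay between 5.89 and 6.56 CPM per kilobase, and of these Tnni1 and Tnnt2 overlapped in their spread. Myh3, at 4.94 and 6.15 CPM per kilobase, was the first heavy chain in this order, and its values overlapped with those of Tnnt2, Acta1, Des and Mybpc1. Ttn was at 0.0821 and 0.103 CPM per kilobase, although it is among the better counted genes, and Myl2 was last.

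Other genes of the same apparatus were taken from a list of 63, of which 56 were tested. The edgeR test called 0 of them, beside 0.895% higher and 0.927% lower among all genes. An unadjusted p under 0.05 was reached by 4 on the higher side and 2 on the lower, beside 5.62% and 4.86% of all genes. DESeq2 called 1 higher (Jph1), beside 1.77% of the genes it tested. The log2 fold change was above 0 in 39 and below 0 in 17, with a median of 0.11. Of all genes tested, 7969 were above 0 and 7676 below. Those with the lowest p besides Myh4 were Jph1, which joins the T-tubule to the calcium store (log2 fold change 0.51, SE 0.13, adjusted p = 0.130), and Mybpc3, the cardiac myosin-binding protein C (-1.16, SE 0.32). Csrp3, a Z-disc LIM protein, and Pgam2, the muscle phosphoglycerate mutase, had log2 fold changes of 1.26 (SE 0.35) and 0.57 (SE 0.21). The tropomyosins Tpm1, Tpm3 and Tpm2, which non-muscle cells also express, were the most abundant, at 664.8 to 788.7, 381.4 to 410.8 and 56.6 to 60.4 CPM. Their log2 fold changes lay between -0.09 and 0.04.

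In the fit of all 4 samples no marker of the muscle lineage itself passed the test. Of the 12 myogenic markers 11 were tested and 0 called by edgeR, 0 had an unadjusted p under 0.05, and DESeq2 called 0. Among all genes edgeR called 0.895% higher and 0.927% lower, and 5.62% and 4.86% had such an unadjusted p. Their median log2 fold change was 0.08. Some of these markers are also among the other muscle genes above. Myog, the factor of differentiating muscle cells, was at 24.4 and 27.6 CPM in GCE/+ and at 27.6 and 24.1 CPM in GCE/GCE cells and overlapped (log2 fold change -0.01, SE 0.11). Myod1, a determination factor, was at 8.15 and 8.43 CPM against 9.77 and 8.53 CPM. Pax3, a progenitor gene, was at 1.10 and 1.13 CPM against 2.53 and 1.26 CPM, with GCE/GCE replicate 1 the highest. Its log2 fold change was 0.76 (SE 0.34), and it was 0.17 without GCE/GCE replicate 1 and 1.18, with an adjusted p of 0.0248, without GCE/GCE replicate 2. Against Myog, whose own level overlapped, the ratio of Myh8 CPM was 0.200 and 0.214 in GCE/+ and 0.413 and 0.411 in GCE/GCE cells. The ratio of Myh3 CPM to Myog CPM was 1.22 and 1.34 against 1.63 and 1.73. Each of these ratios was apart between the groups with an exact permutation p of 0.33, the smallest possible (n = 2 per group). As Myog hardly differed, the ratios restate the Myh8 and Myh3 values above and are not a separate result. Myog is 1 of the 12 markers, and ratios to the others singly were not taken.

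Markers of cardiac and smooth muscle were looked at as well. Several of the listed genes are also cardiac genes by name. The 7 cardiac markers summed to 2.27 and 1.70 CPM in GCE/+ and to 2.26 and 2.55 CPM in GCE/GCE cells. Of these, 3 were tested and 0 called by edgeR or DESeq2, with 1 higher at an unadjusted p under 0.05. All 3 were above 0, with a median log2 fold change of 0.48. Of all 15645 genes tested, 5.62% had such a p on the higher side and 4.86% on the lower, and 7969 were above 0. Sln, sarcolipin, was at 0.263 and 0.210 CPM against 0.517 and 0.490 CPM (log2 fold change 1.07, SE 0.36, adjusted p = 0.288). Tnni3, cardiac troponin I, made up most of the sum at 1.01 to 1.45 CPM and overlapped. Nkx2-5, a heart transcription factor, gave 0, 0, 0 and 2 counts and Myl7, the atrial light chain, at most 3 counts per library, and both were named after their values were seen. The 8 smooth muscle markers summed to 194.4 and 198.3 CPM against 231.2 and 192.8 CPM, with 0 called by edgeR or DESeq2, 0 at an unadjusted p under 0.05 and a median log2 fold change of 0.13.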

How the data were processed

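RNA-seq libraries were made with a TruSeq v2 kit. The authors aligned read pairs to mm9 (TopHat2, guided by UCSC gene models), then ran HTSeq (intersection-strict) to count fragments. Their deposited tables give unnormalized counts, 1 value per gene symbol. Groups were taken from the sample labels. The members and lists of genes were chosen with earlier results of these data known. Any of the 36 members could be named. From the other lists the 5 lowest p and the 3 most abundant genes could be named.

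Symbols were matched to GENCODE mouse release 21 (GRCm38, whereas counting used mm9), 98.0% directly or by a synonym. Exonic length is the union of exons of transcripts with a RefSeq record. All genes were filtered with filterByExpr, scaled by TMM and tested with edgeR 4.0.16 in R 4.3.3 (quasi-likelihood, two-sided, GCE/GCE against GCE/+, Benjamini-Hochberg adjustment over 15645 genes, threshold 0.1). The biological coefficient of variation was 0.107, with 2 residual and 6.38 prior degrees of freedom. DESeq2 1.42.0, the study's tool, was run with alpha 0.05. The exact permutation test of sums and shares cannot give less than 0.33. Other settings were RLE and upper quartile scaling, other filters, a replicate block, length offsets, a threshold of 0.05, each sample left out, and a legacy quasi-likelihood fit added after seeing the data. The procedure was also run on simulated counts, and the outcome is not given here. Those counts were drawn gene by gene, without a length trend or shifts shared by many genes, so they cannot test for these. Replicates differed beyond sampling noise (chi-square per degree of freedom 30.8 in GCE/+, 25.9 in GCE/GCE). Floors cover counting error only. Tables were made with Python 3.11.15, pandas 2.3.3, scipy 1.17.1 and matplotlib 3.10.9.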

Additional observations from a re-analysis of the deposited data

How the results depend on the processing

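Depth kept 2 listed genes, Myl2 and Ckm, from being tested, and of the other 34 only Myh8 passed in the full fit. Over all genes, 285 were called, against 508 with DESeq2, 127 with no filter, 130 at an adjusted p under 0.05, 435 with length offsets plus the replicate block, and 199 to 961 when a sample was left out. Of the listed muscle genes 1 was called, against 4 with DESeq2, 2 with length offsets and the block (Myh8 and Casq2), and 0 to 6 with a sample left out. Of the other muscle genes 0 were called, against 1 with DESeq2 and 0 to 2 with a sample left out. The median log2 fold change of the list was 0.22 to 0.43 with a sample left out, where the lone sample of a group is assumed to vary like the other group. The replicate numbers share nothing in the labels, and same-numbered samples did not deviate together (correlation 0.0197 over 13469 genes). With the replicate block 290 genes and 1 listed gene were called, and Myh8 was at 0.99 with an adjusted p of 0.0571. Over 13 settings, 415 fold changes of listed genes kept their direction and side of the threshold, 1 lost its call (Myh8), 11 gained one and 14 changed sign, each with a sample left out and none of them called in the full fit. Their ranges were -0.0255 to 0.292 for Actc1, -0.49 to 0.52 for Myh2, -0.0743 to 0.144 for Tnnt2, -0.0524 to 0.0864 for Tnni2, -0.20 to 0.26 for Tnnt3, -0.38 to 0.16 for Mybpc1, -0.0231 to 0.488 for Myom1, -0.246 to 0.0690 for Des and -0.0378 to 0.374 for Chrna1. The log2 ratio of the summed CPM, 0.25, was 0.23 by library size alone and 0.15 to 0.35 with a sample left out. With a sample left out the share differences, in percentage points, were 4.53 to 5.90 for Myh8 and -6.64 to -5.45 for Myh3. They changed sign for Myl4 (-0.727 to 5.10), Myl1 (-3.99 to 1.70), Myh1 (-0.453 to 1.04), Myh2 (-0.532 to 0.0581), Tnnt2 (-3.80 to 0.487), Tnnt3 (-1.77 to 0.595), Mylpf (-0.0936 to 0.0696) and Myl2 (-0.0696 to 0.0936). The cause of these shifts was not tested.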
